A study of Mus musculus with 20 samples.

Results

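The 33 genes described here make, take up, sense and export cholesterol. They were taken from a list of symbols in pathway order and comprised 18 synthesis enzymes, 8 genes of sterol regulatory element-binding protein (SREBP) regulation and sterol uptake, and 7 genes of the liver X receptors (LXR) and sterol efflux. All 33 were found among the 24394 gene symbols shared by the count tables of the 3 days, and all 33 passed the filter on low counts at every day. The rule that lists them uses no measured value, but the list was chosen with earlier results of these data known.

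Fibroadipogenic progenitors (FAPs) are stromal cells of skeletal muscle that can become fibroblasts or adipocytes. They were sorted from the hindlimb muscle of male C57BL/6J mice. KPC mice had received 2 M (megacells) of KPCY, a mouse pancreatic tumour cell line, in 50 µL into the pancreas, and control mice had sham surgery. The age and housing of the mice were not given in the sources used here. KPC and control FAPs were collected at day 14 (4 KPC and 3 control libraries), day 21 (3 and 3) and day 26 (3 and 4), each day with its own controls. The sort kept CD31-, CD45-, α7-integrin-, PI-, SCA-1+ and Hoechst+ cells, so endothelial, blood and satellite cells were to be left out. The labels number the libraries as biological replicates and do not say whether each came from a single mouse.

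Cells make cholesterol from acetyl-CoA through mevalonate, squalene and lanosterol. When sterol in the endoplasmic reticulum is low, the escort protein Scap carries SREBP to the Golgi, where it is cut and then turns on the genes of sterol synthesis and uptake. When sterol is high, the Insig proteins hold Scap and SREBP back. Oxysterols meanwhile activate the liver X receptors, which turn on exporters such as Abca1 and Abcg1 and the lipid carrier Apoe.

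The libraries held between 12.9 and 26.4 M counts (M, megacounts). The member with the fewest counts, Abcg1, had 1802 over the 20 libraries, where counting error was not small beside the spread between libraries. The same limit applies to Idi1 in KPC, with 73 counts over 3 libraries at day 21 and 62 over 3 at day 26. Pdgfra, the usual FAP marker, spanned 1196 to 1700 CPM (counts scaled by library size to a common megacount total) in KPC and 1241 to 1423 CPM in control libraries. Ly6a, which encodes SCA-1, spanned 503 to 1195 CPM in KPC and 935 to 1417 CPM in control libraries. Over 9 progenitor markers, these 2 among them, the median log2 fold change of KPC over control was -0.01, -0.12 and -0.61 at days 14, 21 and 26. At day 26, 6 of the 9 were negative and 3 positive (-1.88 to 0.64). Ptprc, which encodes CD45, lay between 0.0478 and 5.74 CPM in KPC and between 0.0397 and 1.03 CPM in control libraries. Pecam1, which encodes CD31, spanned 12.5 to 241 CPM in KPC and 4.45 to 25.2 CPM in control libraries. KPC replicate 3 of day 26 stood apart from the other KPC libraries of its day. Its chi-square per gene against them was 383 and 338, whereas all other pairs of one group gave 12.1 to 88.7. No pair looked like one library deposited more than once. The library codes begin with a number whose meaning the labels do not give. KPC and control libraries had different numbers at days 14 and 21, where this number and the tumour cannot be told apart.

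At day 21 most synthesis enzymes fell in KPC FAPs. Of 18 enzymes 14 were called lower and 0 higher (edgeR, Benjamini-Hochberg adjusted p under 0.05 over all genes tested), whereas 6.11% of all 13154 genes tested were called lower and 6.38% higher. Without control replicate 1 or without control replicate 2, 9 of 18 were called lower (2.53% and 2.6% of all genes), as in 1 fit of all 20 libraries (1.15% of all genes). The median log2 fold change of the enzymes, KPC over control, was -1.54, beside 0.009 over all genes. Summed over the 18 enzymes, the KPC libraries held 240 ± 27.3 CPM (SD, n = 3) and the controls 671 ± 176 CPM (SD, n = 3), so KPC stood at 35.8% of control. In these bulk libraries fewer cells of one type and less RNA per cell cannot be told apart.

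**Figure D1:**
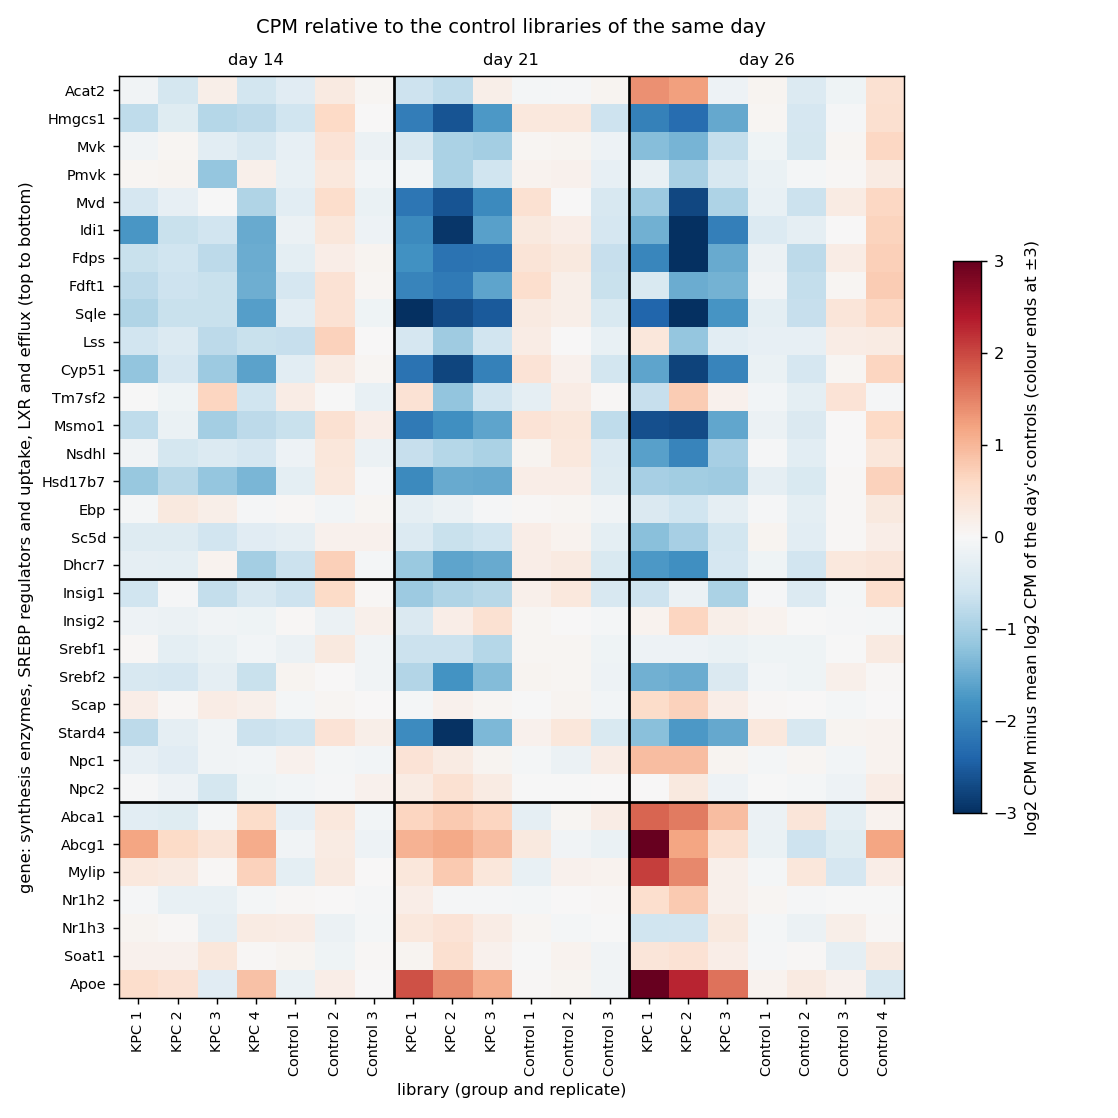
Heat map of the 33 genes (rows, in 3 role groups from top to bottom) in the 20 libraries (columns, by day, KPC to the left of control). Colour gives log2 CPM minus the mean log2 CPM of that day's controls, with the scale ending at ±3. Most synthesis enzymes are blue in the KPC columns of days 21 and 26, and Abca1 and Apoe are red there.

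Sqle, squalene epoxidase, which catalyses the first oxygen-requiring and a rate-limiting step, had the smallest p of the enzymes. It lay at 6.44, 8.74 and 9.79 CPM in the KPC libraries of day 21, against 68.0, 62.8 and 41.1 CPM in controls. The highest KPC library was thus far below the lowest control, and the log2 fold change was -2.78 ± 0.22 (SE; adjusted p = 3.4e-05). At day 14 Sqle had 32.7, 38.5, 38.2 and 19.4 CPM in KPC, against 48.9, 82.7 and 56.1 CPM in controls. The groups did not overlap at that day either, yet the difference of -0.96 ± 0.26 was not called (adjusted p = 0.121). Day 26 gave 8.36, 4.96 and 12.7 CPM in KPC, against 35.2, 26.7, 55.8 and 66.6 CPM in controls, again without overlap.

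Hmgcs1 makes HMG-CoA, an early intermediate of the pathway, and was the enzyme with the highest level per kilobase of exon in control FAPs (median 29.2 CPM per kb over 10 libraries, range 17.4 to 48.6). At day 21 it lay at 34.0, 24.1 and 43.3 CPM in KPC, against 179, 179 and 93.2 CPM in controls. Every KPC library was below every control, and Hmgcs1 fell by 2.15 on the log2 scale (SE 0.32, adjusted p = 0.0085). Day 14 gave 89.3, 117, 83.8 and 87.8 CPM in KPC, against 99.9, 229.8 and 152 CPM in controls, where KPC replicate 2 was above control replicate 1. Hmgcs1 had 27.4, 23.0 and 38.7 CPM in KPC at day 26, against 117, 78.5, 109 and 158 CPM in controls, and the groups were well apart.

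Hmgcs1 was also the 1 member whose promoter window held a letter match to the sterol regulatory element, the DNA site that SREBP binds. Windows of 300 bases, running from 250 bases before to 50 bases after the RefSeq start (GRCm38.p6), were found for 27 of the 33 members. Searched on both strands, the SRE-like motif TCACNCCAC was in 1 of 15 synthesis enzymes with a window, 0 of 6 regulators and 0 of 6 efflux genes, and in 1.44% of all 27025 genes. In Hmgcs1 it began 137 bases before the start (position -137), on the strand of the gene, 34 bases from the nearest CCAAT box. CCAAT, the core of the NF-Y site that often stands beside SREBP sites, was in 14 of 15 enzymes, 5 of 6 regulators and 2 of 6 efflux genes, and in 41.1% of all genes. GGGCGG, the SP1 box, was in 14 of 15, 6 of 6 and 3 of 6, and in 38.2% of all genes. The LXR element searched as a direct repeat, AGGTCA and AGGTCA with 4 bases between, was in 0 members and in 0.0148% of all genes. These are letter matches and show neither binding nor use of a site. No motif searched is contained in another, and inexact sites are not found this way.

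The promoter of Hmgcs1 is shown because it held the SRE-like match, and those of Hsd17b7 and Mvd because they hold CCAAT boxes in enzymes with small p at day 21, which was decided after their values were seen. Each is printed 5′ to 3′ on the strand of the gene, from 250 bases before the RefSeq start up to that start or to the GENCODE gene, whichever came first. Capitals mark the SRE-like match and the CCAAT boxes, which read ATTGG on the other strand. The Hmgcs1 stretch is chr13:119690101-119690350 on the plus strand, that of Hsd17b7 is chr1:169969242-169969455 and that of Mvd is chr8:122443423-122443672, both on the minus strand (GRCm38.p6).
Hmgcs1 promoter: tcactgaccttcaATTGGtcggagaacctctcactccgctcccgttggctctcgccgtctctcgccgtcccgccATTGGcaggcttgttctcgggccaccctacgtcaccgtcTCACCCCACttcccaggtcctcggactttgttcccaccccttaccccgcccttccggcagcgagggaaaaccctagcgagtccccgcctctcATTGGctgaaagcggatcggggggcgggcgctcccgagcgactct
Hsd17b7 promoter: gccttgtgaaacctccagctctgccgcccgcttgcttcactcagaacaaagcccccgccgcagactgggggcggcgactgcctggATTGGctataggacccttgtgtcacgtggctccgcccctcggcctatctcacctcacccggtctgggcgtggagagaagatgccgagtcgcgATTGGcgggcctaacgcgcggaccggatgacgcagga
Mvd promoter: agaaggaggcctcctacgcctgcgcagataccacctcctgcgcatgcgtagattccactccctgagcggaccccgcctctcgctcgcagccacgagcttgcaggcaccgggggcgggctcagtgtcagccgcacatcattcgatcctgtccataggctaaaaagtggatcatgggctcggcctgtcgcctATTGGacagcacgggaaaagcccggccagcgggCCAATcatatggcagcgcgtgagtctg

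Mvd, which makes isopentenyl diphosphate as the last of the mevalonate enzymes, had 3.53, 2.62 and 4.204 CPM in KPC at day 21, against 21.8, 15.8 and 11.4 CPM in controls. It fell by 2.23 (SE 0.29, adjusted p = 0.00056), with the groups well separated. Day 14 gave 8.29, 9.87, 11.6 and 6.27 CPM in KPC, against 9.38, 16.9 and 10.2 CPM in controls. Mvd had 5.13, 1.63 and 5.77 CPM in KPC at day 26, against 9.27, 6.93, 12.9 and 16.8 CPM in controls. The groups of day 14 overlapped and those of day 26 did not. Its neighbours in the mevalonate segment differed in how far they moved. Idi1, which isomerises isopentenyl diphosphate, fell by 2.08 at day 21 (SE 0.43, adjusted p = 0.00984), with only 73 counts over the 3 KPC libraries. Mvk, mevalonate kinase, fell by 0.80 (SE 0.18, adjusted p = 0.013). Idi1 was called in 12 of 14 alternative fits of that day and Mvk in 10. Pmvk, phosphomevalonate kinase, had 7.998 ± 2.51 CPM in KPC and 11.4 ± 1.58 CPM in controls at day 21 (SD, n = 3 each), and was not called (adjusted p = 0.232).

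Fdps, which makes farnesyl diphosphate, the branch point to sterols and to isoprenoids, had 14.2, 10.8 and 10.99 CPM in KPC at day 21, against 65.5, 61.5 and 31.2 CPM in controls. It fell by 2.14 (SE 0.27, adjusted p = 0.00145). Its day 14 values were 31.7, 33.1, 29.3 and 17.9 CPM in KPC, against 41.1, 58.2 and 53.4 CPM in controls. By day 26 it lay at 10.7, 4.17 and 14.6 CPM in KPC, against 36.6, 24.2, 48.6 and 68.1 CPM in controls. KPC was below every control at all 3 days. Fdft1, squalene synthase, the first enzyme committed to sterols, fell by 1.95 at day 21 (SE 0.29, adjusted p = 0.00364). It shares 18.3% of its exon bases with Ctsb on the other strand, and the counting's use of strand was not given in the sources used here. Genes of the isoprenoid branch beside it include the geranylgeranyl and coenzyme Q enzymes and the prenyltransferases. Of these 9 genes 0 were called in either direction at each day. Of all genes, 0.435% were called lower and 0.682% higher at day 14, 6.11% and 6.38% at day 21, and 0% at day 26. At an unadjusted p under 0.05, 0, 1 and 1 of the 9 were lower and 0 higher at days 14, 21 and 26. As lower, 6.47%, 13.4% and 13.9% of all genes passed that threshold, and as higher 7.8%, 14.3% and 20.3%. Counts this small in 9 genes do not tell the branch apart from all genes. The median log2 fold change of the 9 branch genes was 0.06, 0.09 and -0.02 at days 14, 21 and 26.

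Cyp51, which removes a methyl group from lanosterol, had 13.8, 9.37 and 15.5 CPM in KPC at day 21, against 84.7, 69.8 and 43.5 CPM in controls. The fall of 2.35 (SE 0.27, adjusted p = 0.00085) was among the larger ones. Day 14 gave 33.9, 54.2, 36.1 and 25.3 CPM in KPC, against 62.2, 92.5 and 80.7 CPM in controls. Day 26 gave 17.8, 7.77 and 13.5 CPM in KPC, against 45.9, 37.7, 55.5 and 82.2 CPM in controls. No KPC library reached a control at any of the days. Cyp51 shares 3.76% of its exon bases with Akap9 on the other strand.

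Hsd17b7 reduces a sterol ketone and was the 1 member called at day 14. It had 15.8, 19.3, 15.3 and 13.2 CPM in KPC at day 14, against 28.2, 42.9 and 33.9 CPM in controls (log2 fold change -1.13 ± 0.17, adjusted p = 0.00703). Day 21 gave 6.44, 8.43 and 8.31 CPM in KPC, against 27.5, 27.7 and 18.4 CPM in controls (-1.66 ± 0.21, adjusted p = 0.00047). It stood at 10.3, 9.91 and 9.83 CPM in KPC at day 26, against 16.99, 15.03, 20.9 and 33.2 CPM in controls. Its groups were apart at all 3 days. Dhcr7, which reduces the last precursor to cholesterol, had 8.59, 6.18 and 6.497 CPM in KPC at day 21, against 21.3, 22.2 and 13.4 CPM in controls (-1.41 ± 0.24, adjusted p = 0.00299). Day 14 gave 11.5, 11.3, 15.01 and 6.84 CPM in KPC, against 8.80, 22.9 and 13.2 CPM in controls, which overlapped. The day 26 values overlapped too, at 4.68, 4.28 and 10.8 CPM in KPC, against 14.2, 10.4, 19.3 and 19.7 CPM in controls.

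The other enzymes between lanosterol and cholesterol varied more at day 21. Msmo1, the methylsterol oxidase, fell by 1.92 (SE 0.30, adjusted p = 0.00532), Nsdhl, which acts with it, by 0.86 (SE 0.21, adjusted p = 0.0189), and Sc5d, the sterol desaturase, by 0.57 (SE 0.15, adjusted p = 0.0251). Lss, which closes the sterol rings, fell by 0.70 (SE 0.20, adjusted p = 0.0411) but was called in 6 of 14 alternative fits of that day. Sc5d was called in 9 of the 14, Nsdhl in 10 and Msmo1 in 13. Ebp, the sterol isomerase, had 36.5 ± 2.92 CPM in KPC and 40.7 ± 2.33 CPM in controls (SD, n = 3 each; adjusted p = 0.443), and Tm7sf2, a sterol reductase, had 4.18 ± 2.42 CPM in KPC and 5.13 ± 0.864 CPM in controls (adjusted p = 0.69). Ebp and Tm7sf2 were thus not called, nor was Acat2, the cytosolic thiolase at the head of the pathway, at 6.96 ± 2.63 CPM in KPC and 8.80 ± 0.477 CPM in controls. Tm7sf2 shares 12.1% of its exon bases with Vps51 on the same strand.

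**Figure D2:**
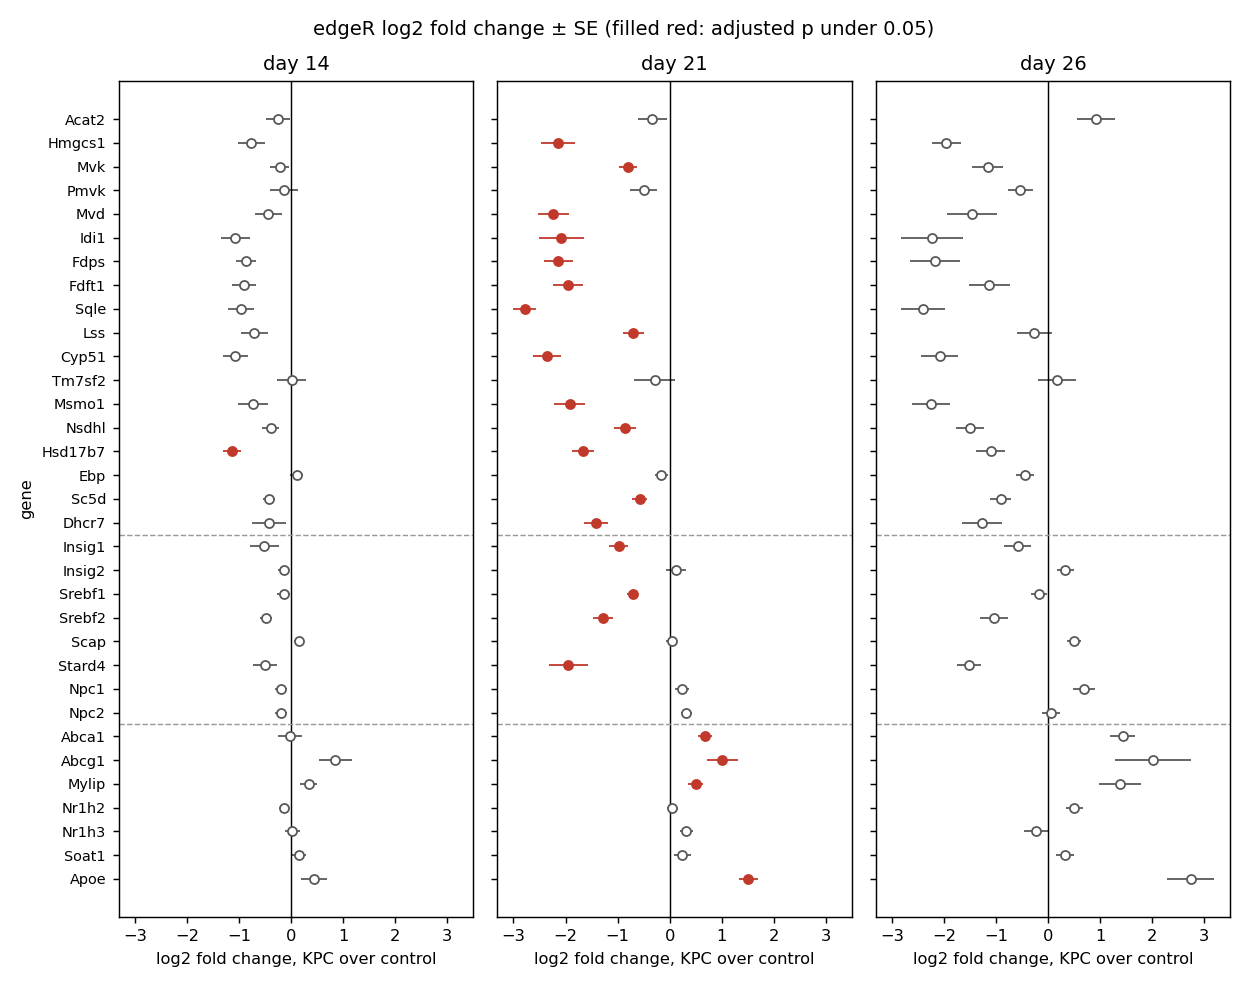
Log2 fold change of KPC over control with its SE for the 33 genes (rows) at days 14, 21 and 26 (panels, left to right), from edgeR. Filled red points have an adjusted p under 0.05: 1 gene at day 14, 22 at day 21 and 0 at day 26.

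At day 14 the enzymes stood lower in KPC by less. Hsd17b7 alone of 18 was called lower and 0 were called higher, with 0.435% of 13344 genes called lower and 0.682% higher. At an unadjusted p under 0.05, 11 enzymes were lower and 0 higher, beside 6.47% and 7.8% of all genes. In 7 of 18 enzymes every KPC library lay below every control, which was so for 5.83% of all genes, and in 0 every KPC library lay above, against 7.52% of all genes. The median log2 fold change was -0.57, beside 0.007 over all genes, and the summed level was 473 ± 64.7 CPM in KPC (SD, n = 4) and 750 ± 196 CPM in controls (SD, n = 3). DESeq2 called 10 members lower and 0 higher (1.78% and 2.71% of all genes), namely Hmgcs1, Idi1, Fdps, Fdft1, Sqle, Cyp51, Msmo1, Hsd17b7, Sc5d and Srebf2.

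No gene of the whole table was called at day 26 by edgeR, 0% lower and 0% higher of 13157, so no member could be. At an unadjusted p under 0.05, 14 enzymes were lower and 1 higher, beside 13.9% and 20.3% of all genes, and the smallest adjusted p of any member was 0.0592. Every KPC library lay below every control for 12 of 18 enzymes, against 14.5% of all genes below and 14.5% above. The median log2 fold change was -1.21, beside -0.003 over all genes, and the summed level was 231 ± 41.8 CPM in KPC (SD, n = 3) and 583 ± 168 CPM in controls (SD, n = 4). DESeq2 on the same libraries called 15 members lower and 7 higher (7.71% and 13.7% of all genes called lower and higher), 13 of the 15 being enzymes.

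Without KPC replicate 3 of day 26, the library that stood apart, edgeR called 16 members lower and 8 higher, but 25.9% of all genes were then called lower and 25.7% higher. That fit has 2 KPC libraries and was not independent of the choice of library. Of the enzymes 13 were lower there, for example Sqle (-2.80 ± 0.46, adjusted p = 0.00259) and Msmo1 (-2.73 ± 0.31, adjusted p = 0.00028), and Acat2 was higher (1.25 ± 0.23, adjusted p = 0.00238). Among the libraries whose codes begin with 227 (2 KPC, which again leave out replicate 3, and 3 control), 13 members were called lower and 9 higher, beside 22.8% and 24.3% of all genes.

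Acat2 stood higher in KPC at day 26, unlike most enzymes. It had 21.2, 19.2 and 7.37 CPM in KPC at day 26, against 8.67, 6.20, 7.54 and 11.3 CPM in controls. KPC replicates 1 and 2 were above every control and replicate 3 was within them, and the difference of 0.92 ± 0.37 was not called (adjusted p = 0.129). Acat3, a neighbouring gene of the same family on chromosome 17, had 92, 38 and 3 counts in those KPC libraries, against 1, 10, 0 and 3 counts in controls. How reads that match both copies were counted was not given in the sources used here. Acat3 was looked up after the Acat2 values were seen.

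The enzymes also varied together among libraries of one group. Control replicate 2 of day 14 had the highest level for 15 of 18 enzymes and control replicate 1 the lowest for 15. At day 21 control replicate 3 had the lowest for 16, and at day 26 control replicate 4 had the highest for 17 and control replicate 2 the lowest for 15. KPC replicate 2 was the lowest of its group for 12 enzymes at day 21 and for 14 at day 26. Control libraries of one day thus differed in the same direction across most of the pathway, and the summed level spanned 470 to 794 CPM over the day 21 controls, against 209 to 261 CPM over the KPC libraries.

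**Figure D3:**
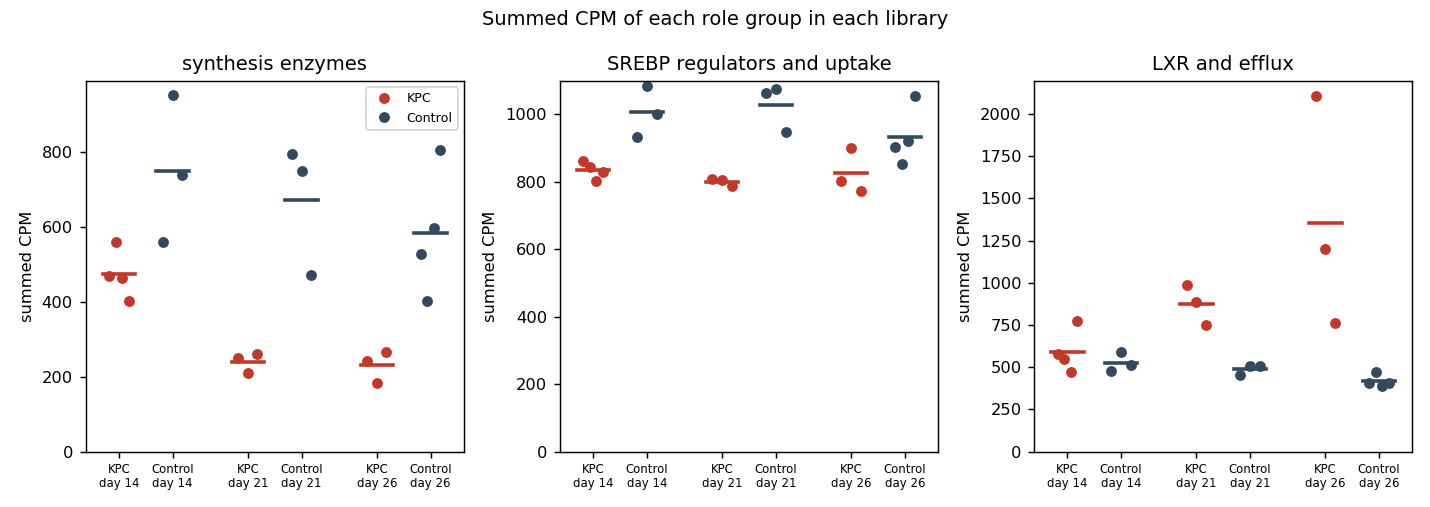
Summed CPM of each role group (panels: synthesis enzymes, SREBP regulators and uptake, LXR and efflux) in each library (points) by day, KPC to the left of control, with group means as lines. The synthesis sums of KPC and control do not overlap at any day, and the efflux sums do not overlap at days 21 and 26. At day 14 the margin of the synthesis sums is very narrow, with 558.7 CPM in the highest KPC and 559.7 CPM in the lowest control library.

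At day 21, 4 of 8 were called lower (Insig1, Srebf1, Srebf2 and Stard4) and 0 higher, beside 6.11% and 6.38% of all genes. The median log2 fold change of the 8 genes was -0.20, -0.33 and -0.06 at days 14, 21 and 26. Their summed level at day 21 was 787 to 808 CPM in KPC, against 948 to 1074 CPM in controls.

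Srebf2 encodes SREBP2, the form that acts mostly on cholesterol genes. At day 21 it had 146, 77.2 and 108 CPM in KPC, against 284, 278 and 243 CPM in controls. It fell by 1.28 (SE 0.20, adjusted p = 0.00369), with a wide gap between the groups. The gap was also present at day 14, with 166, 163, 191 and 146 CPM in KPC, against 247, 233 and 217 CPM in controls, although -0.48 ± 0.11 was not called there (adjusted p = 0.0546). Day 26 gave 90.003, 86.05 and 179 CPM in KPC, against 231, 223, 272 and 249.5 CPM in controls. KPC replicate 3 was the nearest to the controls, and without it the difference was -1.49 ± 0.14 (adjusted p = 8.4e-05).

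Srebf1 encodes SREBP1, whose main form in most tissues acts on fatty acid genes. It had 116, 115 and 100.4 CPM in KPC at day 21, against 189, 189 and 164 CPM in controls, a fall of 0.71 (SE 0.11, adjusted p = 0.00166). Day 14 gave 149, 120.2, 128 and 139 CPM in KPC, against 129, 178 and 136 CPM in controls. Values at day 26 were 135, 135 and 131 CPM in KPC, against 138, 137, 148 and 182 CPM in controls. Day 14 overlapped, and at day 26 the groups were apart by a narrow margin only (-0.18 ± 0.15, adjusted p = 0.387). Srebf1 shares 3.11% of its exon bases with Rai1 on the other strand and Mir6922.

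Insig1, itself an SREBP target that holds Scap back, had 56.1, 63.9 and 66.6 CPM in KPC at day 21, against 134, 149 and 85.3 CPM in controls. It fell by 0.98 (SE 0.18, adjusted p = 0.00773). Day 14 gave 88.0, 129, 81.6 and 95.5 CPM in KPC, against 87.1, 198 and 138 CPM in controls. Day 26 gave 67.8, 91.6 and 53.7 CPM in KPC, against 102, 77.6, 99.7 and 147 CPM in controls. Both of those days overlapped. Insig2, its less regulated relative, was not called at any day, and had 51.6 ± 15.04 CPM in KPC and 47.4 ± 2.00 CPM in controls at day 21 (SD, n = 3 each).

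Stard4 carries cholesterol between membranes in the cytosol. At day 21 it lay at 6.44, 3.06 and 9.41 CPM in KPC, against 26.1, 30.1 and 17.3 CPM in controls, a fall of 1.94 (SE 0.37, adjusted p = 0.0105). Day 14 gave 12.5, 17.7, 19.9 and 13.6 CPM in KPC, against 14.1, 28.6 and 24.4 CPM in controls, which overlapped. Day 26 gave 9.25, 6.70 and 7.52 CPM in KPC, against 27.3, 15.8, 23.1 and 23.5 CPM in controls, where the groups were apart (-1.52 ± 0.23, adjusted p = 0.0592).

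Scap and the lysosomal sterol exporters Npc1 and Npc2 were not called in the edgeR fit of any single day with every library in. Npc2 had 283, 327 and 285 CPM in KPC at day 21, against 238, 239 and 240.1 CPM in controls, with the groups apart (0.32 ± 0.10, adjusted p = 0.0616). At day 26 Npc1 had 120.2, 119 and 66.9 CPM in KPC, against 60.1, 65.7, 59.3 and 67.3 CPM in controls, and Scap had 95.2, 104 and 74.4 CPM in KPC, against 66.6, 65.2, 61.7 and 65.1 CPM in controls. Both were higher in KPC replicates 1 and 2 than in any control, and Scap in replicate 3 also. Without replicate 3, Npc1 was called at 0.91 ± 0.11 (adjusted p = 0.00023) and Scap at 0.61 ± 0.10 (adjusted p = 0.00146).

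Of the other SREBP pathway regulators 2 of 10 were called lower and 0 higher at day 21 (6.11% and 6.38% of all genes). Among them Tmem97, a sterol-responsive protein that limits Npc1, fell by 0.77 (SE 0.22, adjusted p = 0.0387). Of the 12 other uptake and lysosomal genes tested that day, 1 was called higher and 1 lower, beside 6.38% and 6.11% of all genes. Scarb1, which takes up HDL cholesterol, was the one called higher (1.93 ± 0.45, adjusted p = 0.0373) and also at day 14 (1.26 ± 0.24, adjusted p = 0.0292). Scarb1 is also made by endothelial cells and macrophages, whose markers moved with the groups as given below, and their part was not tested.

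Most fatty acid genes driven by SREBP fell as well. At day 21, 7 of 10 were called lower and 0 higher (6.11% and 6.38% of all genes), with a median log2 fold change of -0.57. Fasn, fatty acid synthase, had 78.9 ± 10.2 CPM in KPC and 204 ± 24.6 CPM in controls (SD, n = 3 each; -1.37 ± 0.13, adjusted p = 7.0e-05). Scd2, a desaturase, changed by -1.58 ± 0.22 (adjusted p = 0.00282) and Fads1, another, by -0.72 ± 0.12 (adjusted p = 0.00228). At day 14 Elovl6, an elongase, was the 1 of 10 called lower (-0.58 ± 0.13, adjusted p = 0.0474). None was called higher that day, when 0.435% of all genes were called lower and 0.682% higher. At day 26 none of the 10 and 0% of all genes were called. At an unadjusted p under 0.05, 8 of 10 were then lower and 0 higher (13.9% and 20.3% of all genes).

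**Figure D4:**
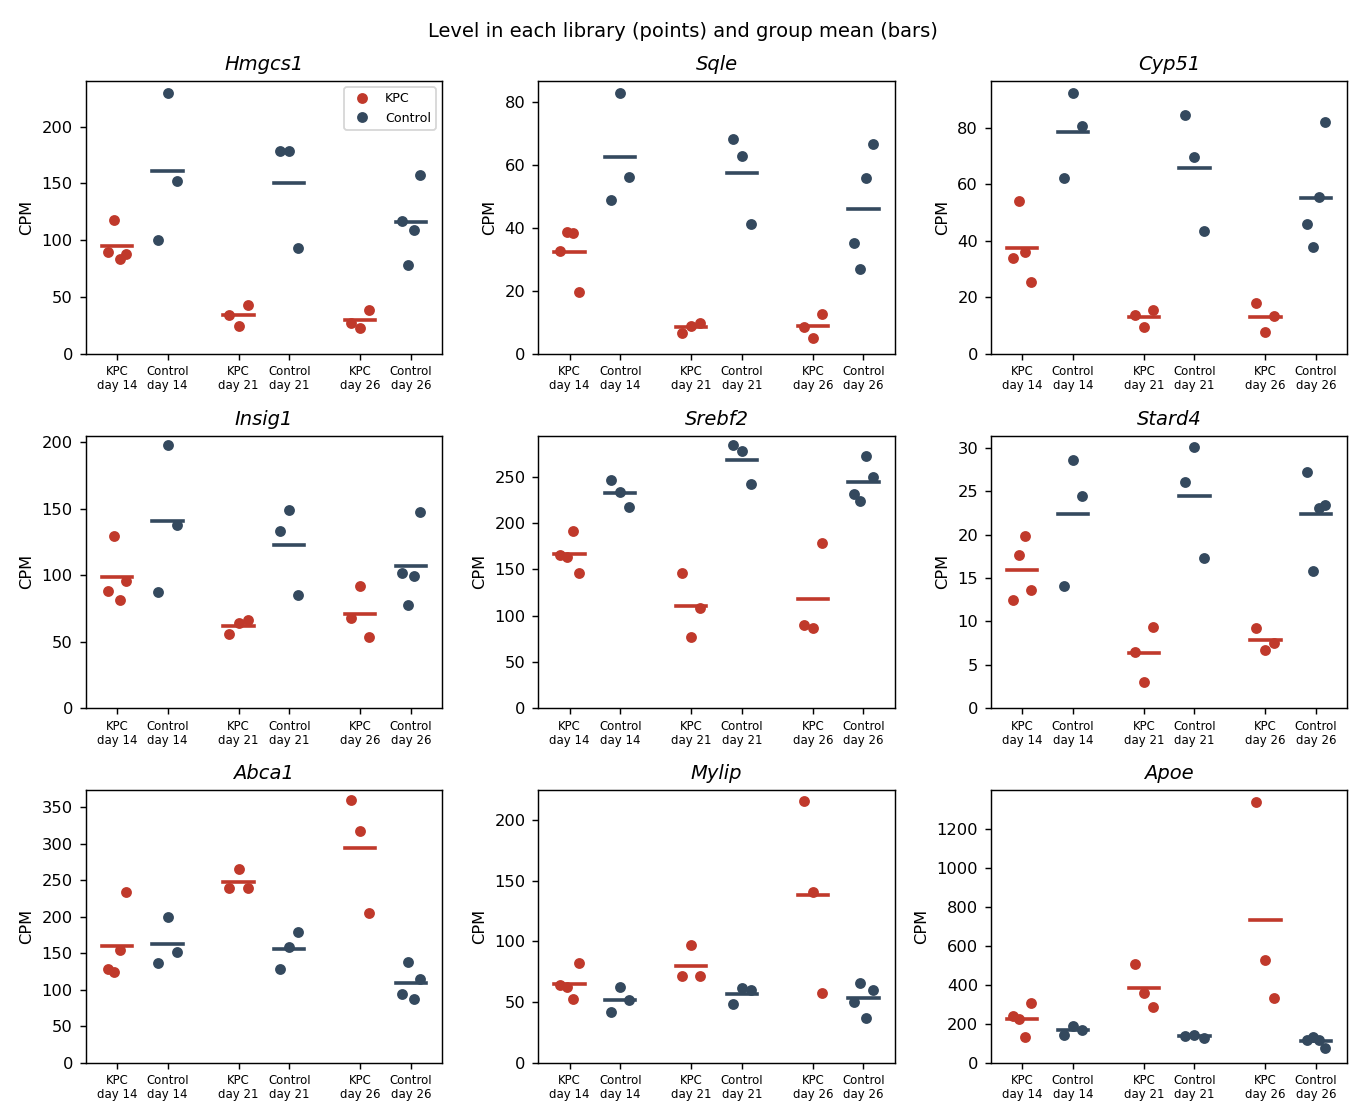
CPM of 9 genes in each library (points) with group means (lines), by day, KPC to the left of control. Hmgcs1, Sqle, Cyp51, Srebf2 and Stard4 lie below every control in KPC at days 21 and 26, and Abca1 and Apoe lie above every control at those days.

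Of the LXR and efflux genes, 4 of 7 rose at day 21. Those called higher were Abca1, Abcg1, Mylip and Apoe, with 0 lower (6.38% and 6.11% of all genes), and every KPC library lay above every control for 5 of 7, against 16% of all genes above and 17.2% below. For comparison, 14 of 18 enzymes lay wholly below at that day. The median log2 fold change of the 7 genes was 0.15, 0.50 and 1.38 at days 14, 21 and 26.

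Apoe, a lipoprotein component that accepts exported cholesterol, was the efflux gene with the highest level per kilobase in control FAPs (median 63.1 CPM per kb over 10 libraries). It had 504, 359 and 287 CPM in KPC at day 21, against 136, 141 and 126 CPM in controls. It rose by 1.51 (SE 0.18, adjusted p = 0.00056), and every KPC library was well above every control. At day 14 it had 236, 222, 129.6 and 303 CPM in KPC, against 142, 187 and 166 CPM in controls, which overlapped through KPC replicate 3. Day 26 gave 1335, 528 and 332 CPM in KPC, against 115, 129.5, 117 and 76.95 CPM in controls, with KPC replicate 1 far above the other KPC libraries (2.74 ± 0.45, adjusted p = 0.0592).

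Abca1 pumps cholesterol to apolipoprotein A-I. At day 21 it had 239.8, 266 and 239 CPM in KPC, against 128, 159 and 179 CPM in controls, a rise of 0.68 (SE 0.13, adjusted p = 0.00579). Day 14 gave 129, 124, 154 and 234.2 CPM in KPC, against 136, 200.1 and 152 CPM in controls, with no difference in direction that held when single libraries were left out (-0.26 to 0.14). By day 26 it lay at 360.2, 318 and 205 CPM in KPC, against 94.7, 139, 87.7 and 115 CPM in controls, with all KPC libraries above (1.43 ± 0.24, adjusted p = 0.0592).

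Mylip encodes a ubiquitin ligase that LXR turns on and that limits lipoprotein uptake. It had 71.2, 96.6 and 71.4 CPM in KPC at day 21, against 48.0, 61.3 and 60.0 CPM in controls (0.50 ± 0.15, adjusted p = 0.0448). Day 14 gave 64.0, 62.0, 52.1 and 82.4 CPM in KPC, against 41.8, 61.9 and 51.7 CPM in controls. Day 26 gave 216, 141 and 57.3 CPM in KPC, against 49.8, 65.4, 36.5 and 59.7 CPM in controls. Both of those days overlapped, day 26 through KPC replicate 3.

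Abcg1, which exports cholesterol to HDL, was the lowest of the 7 genes per kilobase (median 0.33 CPM per kb in controls). At day 21 it had 6.29, 6.68 and 5.78 CPM in KPC, against 3.77, 2.84 and 2.66 CPM in controls (1.01 ± 0.30, adjusted p = 0.0456). Day 14 gave 5.34, 3.52, 3.09 and 5.06 CPM in KPC, against 2.18, 2.82 and 2.13 CPM in controls. Day 26 gave 22.0, 4.96 and 3.06 CPM in KPC, against 1.90, 1.42, 1.70 and 4.91 CPM in controls. KPC was above every control at days 14 and 21, while at day 26 KPC replicate 3 lay under control replicate 4. Without KPC replicate 2, KPC replicate 3 or any one of the controls, 2 of the 4 day 21 calls were left, those of Abca1 and Apoe. Abcg1 was called in 6 of 14 alternative fits and Mylip in 7 of 14. Without KPC replicate 2 the adjusted p was 0.107 for Abcg1 and 0.142 for Mylip, and without replicate 3 it was 0.0773 and 0.0584.

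The receptors were not called in the edgeR fit of any single day with every library in. Nr1h3, which encodes LXRα, had 39.0, 41.6 and 36.4 CPM in KPC at day 21, against 32.5, 30.0 and 31.0 CPM in controls (0.32 ± 0.12, adjusted p = 0.109). At day 26 Nr1h3 had 22.4, 23.1 and 41.8 CPM in KPC, against 32.8, 30.4, 38.9 and 35.1 CPM in controls (-0.24 ± 0.23, adjusted p = 0.471). KPC replicates 1 and 2 were below every control and replicate 3 above, and without replicate 3 Nr1h3 was called lower (-0.61 ± 0.14, adjusted p = 0.00609). Nr1h2, which encodes LXRβ, had 136, 165 and 106 CPM in KPC at day 26, against 99.1, 93.4, 95.3 and 95.3 CPM in controls, all KPC libraries being above (0.50 ± 0.16, adjusted p = 0.0885). Soat1, which esterifies cholesterol for storage, had 21.4 ± 3.46 CPM in KPC and 18.1 ± 1.25 CPM in controls at day 21 (SD, n = 3 each; adjusted p = 0.383). In the edgeR fits of single days with every library in, none of these 3 genes was called. At day 26, Nr1h2 was called in 5 of 16 alternative fits, Nr1h3 in 2 and Soat1 in 1. Of the other LXR targets and partners, 3 of 12 were called higher at day 21 and 1 lower (6.38% and 6.11% of all genes). Cyp7b1, an oxysterol hydroxylase, rose by 3.33 (SE 0.63, adjusted p = 0.00563), Pltp, a phospholipid transfer protein, by 0.67 (SE 0.15, adjusted p = 0.0118) and Cyp27a1, which makes 27-hydroxycholesterol, by 0.55 (SE 0.14, adjusted p = 0.0286). Lcat, which esterifies cholesterol in lipoproteins, fell by 1.14 (SE 0.34, adjusted p = 0.0465). None of 13 was called at day 14 or at day 26, with 1 higher and 1 lower at day 14 and 4 higher and 1 lower at day 26 at an unadjusted p under 0.05. Those counts are near the shares of all genes, 7.8% higher and 6.47% lower at day 14 and 20.3% higher and 13.9% lower at day 26.

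Macrophages make Apoe, Abca1 and Abcg1 in quantity, and macrophage markers moved with the KPC group. The summed level of 12 macrophage markers was 26.1 to 57.0 CPM in KPC and 18.4 to 22.8 CPM in controls at day 14, and 27.3 to 100.3 CPM in KPC and 18.4 to 31.1 CPM in controls at day 21. At day 26 it was 458, 48.7 and 26.6 CPM in KPC replicates 1, 2 and 3, against 18.1 to 30.1 CPM in controls. Of the 10 markers tested at day 21, 2 were called higher and 0 lower (6.38% and 6.11% of all genes). All 10 had a positive log2 fold change, with a median of 1.18, beside 0.009 over all genes. Between 0 and 1 of the 12 markers were at 0 in a KPC library and between 0 and 2 in a control library. KPC replicate 1 of day 26 had both the highest marker sum and the highest Apoe, Abca1, Mylip and Abcg1. Without it, the day 26 log2 fold change was 1.98 for Apoe, 1.27 for Abca1, 0.92 for Mylip and 0.69 for Abcg1, against 2.74, 1.43, 1.38 and 2.00 with it. KPC replicate 1 also had the highest marker sum of day 21, and without it Apoe differed by 1.26 (adjusted p = 6.4e-06) and Abca1 by 0.70 (adjusted p = 0.00225). That fit called 19 members lower and 5 higher, with 10% and 9.72% of all genes called lower and higher. The part of macrophages in the efflux values was not tested.

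**Figure D5:**
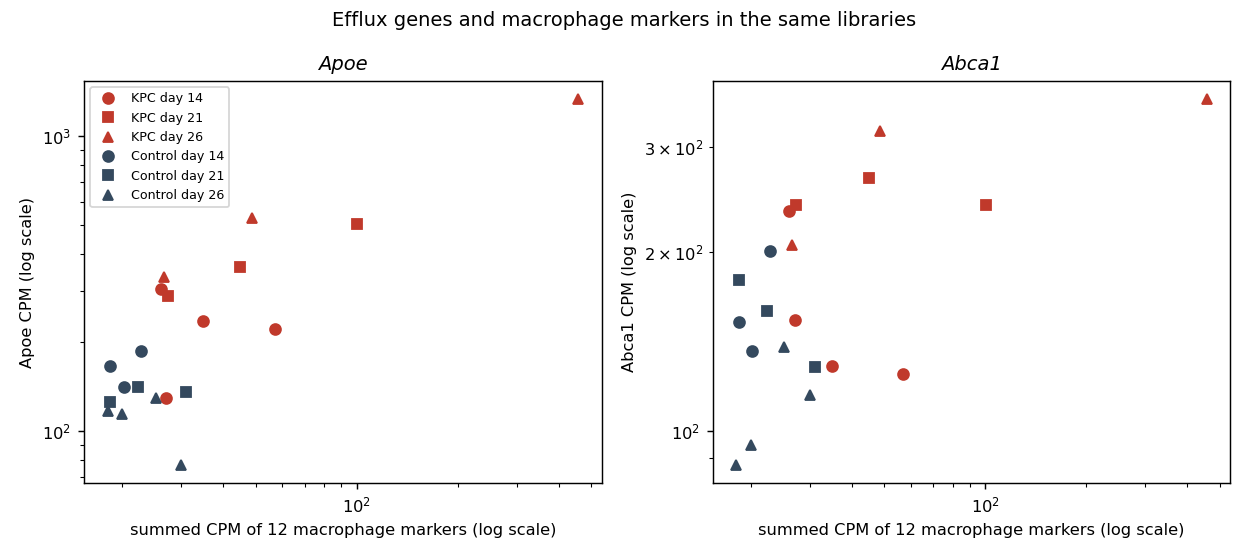
Apoe (left) and Abca1 (right) CPM on a log axis against the summed CPM of 12 macrophage markers on a log axis, 1 point a library, with KPC in red and control in dark blue and symbols by day. KPC replicate 1 of day 26 lies at the far right, and the other KPC libraries of days 21 and 26 lie above the controls in both panels.

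Markers of other cells moved as well. The summed level of 10 endothelial markers at day 21 was 490 to 939 CPM in KPC and 537 to 574 CPM in controls. Of the 10, 6 were called higher and 1 lower (6.38% and 6.11% of all genes), Pecam1 among the higher (2.30 ± 0.51, adjusted p = 0.0463). At day 14 endothelial markers summed to 556 to 738 CPM in KPC and 420 to 499 CPM in controls. Glial markers summed to 51.9 to 105 CPM in KPC and 18.5 to 32.4 CPM in controls at that day. Of 5 glial markers 0 were called and 5 were higher at an unadjusted p under 0.05, which 7.8% of all genes passed as higher. Mural markers summed to 222 to 256 CPM in KPC and 136 to 192 CPM in controls at day 14, with 1 of 6 called higher (0.682% of all genes). Satellite cell markers summed to 5.46 to 15.01 CPM in KPC and 1.97 to 3.78 CPM in controls at day 14, with 1 of 2 tested called higher (0.682% of all genes). None of these sums overlapped between the groups at day 14. Myofibre markers summed to 44.8 to 474 CPM in KPC and 25.2 to 46.2 CPM in controls at day 21, and Acta1 spanned 12.6 to 130.4 CPM in KPC and 5.48 to 13.7 CPM in controls. Adipocyte markers summed to 451, 18.98 and 0.853 CPM in KPC replicates 1, 2 and 3 of day 26, against 0.0935 to 0.619 CPM in controls. The part of these cells in the fall of the enzymes was not tested.

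Whether the difference between KPC and control changed with time was tested as a contrast in 1 fit of all 20 libraries, in which each day kept its own controls. For day 21 minus day 14 the median change of the enzymes was -0.76, beside 0.025 over all genes, and 0 of 33 members were called (0.644% of 14141 genes called), with 9 lower and 3 higher at an unadjusted p under 0.05 (6.54% and 8.6% of all genes). The one with the smallest p was Sqle (-1.80 ± 0.50, adjusted p = 0.12).

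From day 14 to day 26, 5 of 33 members were called, a share near the 14.3% of all genes called in that contrast. The KPC difference moved down for Nsdhl (-1.09 ± 0.31, adjusted p = 0.028) and up for Npc1 (0.90 ± 0.23, adjusted p = 0.0188), Abca1 (1.46 ± 0.32, adjusted p = 0.0119), Nr1h2 (0.65 ± 0.17, adjusted p = 0.0232) and Apoe (2.31 ± 0.50, adjusted p = 0.0123). The median change of the 7 efflux genes was 1.06 and of the 18 enzymes -0.88, beside 0.009 over all genes. The fit without KPC replicate 3 of day 26 called 19 members, with 40.4% of all genes called. From day 21 to day 26, 0 members and 0% of all genes were called, with 6 members higher and 1 lower at an unadjusted p under 0.05 (7.53% and 5.37% of all genes). Days differ in mice, in controls and in library codes, so time and these cannot be told apart.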

How the data were processed

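The authors deposited 1 table a day of unnormalized read counts by gene symbol, all whole numbers. R 4.2.1, DESeq2 1.36.0, STAR, Bowtie, bcl2fastq 2.20 and build mm10 are named without roles in the submitters' processing notes. Which program counted, on which strand and with which annotation is not given in the sources used here. Stranded mRNA libraries, made where the RNA integrity number reached 7, were read as pairs of 59 bases, per the labels' protocols. All 20 columns were matched to samples by library code.

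Each day was fitted alone in edgeR 4.0.16 (R 4.3.3): TMM scaling, filterByExpr (minimum count 10, minimum total 15), robust quasi-likelihood fit, 2-sided test, Benjamini-Hochberg adjustment over all genes of that day, called under 0.05. SE is the absolute log2 fold change over the square root of F. CPM uses each day's own scaling, except levels per kilobase, which use a scaling over all 20. Ranges of marker genes over all libraries therefore join the scalings of the 3 days. The contrasts between days use 1 fit of 6 groups. DESeq2 1.42.0, limma 3.58.1 (voom), other scalings and filters, a replicate block and single libraries left out were alternatives, and the edgeR step was tested on simulated data. P-values measure the spread between libraries.

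The members and all gene lists were chosen with earlier results of these data known. All members may be named. Every library is printed for the called members with the smallest p at day 21 (6 enzymes, 4 regulators, 4 efflux genes) and for Hmgcs1, Sqle, Insig1, Abca1 and Apoe, and up to 3 called genes per direction are named from each other list. Results of some genes of those lists are not reported here. Values of single other members were added after they were seen. Gene positions and exon overlaps come from GENCODE vM21 and promoters from RefSeq.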

Additional observations from a re-analysis of the deposited data

Results flagged for a closer look

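Of 66 sets of 4 libraries of 1 group examined, 1 per member and group, 3 held a library far from the others, where chance marks about 1 in 20. Hmgcs1 stood at 117.4 CPM in KPC replicate 2 of day 14, with 83.8 to 89.3 CPM in the other KPC libraries. Pmvk stood at 5.88 CPM in KPC replicate 3 of day 14, with 13.9 to 14.8 CPM in the others. Abcg1 stood at 4.91 CPM in control replicate 4 of day 26, with 1.42 to 1.90 CPM in the other controls.

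The KPC difference changed between day 14 and day 26 for 5 members, by the contrast in the fit of all groups. It changed by -1.09 for Nsdhl, where KPC averaged 9.065 and control 25.6 CPM at day 26, and KPC averaged 21.2 and control 27.9 CPM at day 14. The change was 0.90 for Npc1, 1.46 for Abca1, 0.65 for Nr1h2 and 2.31 for Apoe. For Nr1h2 the difference was 0.50 at day 26 and -0.13 at day 14, and for Npc1 0.69 and -0.19. As 14.3% of all genes were called in that contrast, these calls are not particular to the members.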

How the results depend on the processing

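Of the fold changes of single members under alternatives, 1266 kept their direction and their side of the threshold, 150 gained a call, 43 lost one and 26 turned. Of the counts of called members, 112 stayed within 1.5 times and 36 did not. At day 14 the 1 member called lower became 4 with no filter on low counts, 10 in DESeq2, 2 in limma-voom, 8 in limma-voom with quality weights, 6 with the replicate block and 0 in 1 fit of all 20 libraries, and 1 to 7 with single libraries left out (7 without control replicate 1, 4 without KPC replicate 4, 2 without KPC replicate 2 or 3). At day 21 the 14 enzymes called lower became 9 without control replicate 1 or 2 and in the fit of all 20 libraries. The 4 called higher became 1 in the fit of all 20 libraries and 2 to 5 with single libraries left out, while the replicate block gave 18 lower and 3 higher. At day 26 the 0 lower and 0 higher became 15 and 7 in DESeq2, 9 and 8 in limma-voom with quality weights, 16 and 8 in the fit of all 20 libraries, 13 and 9 within code 227, and 0 to 16 and 0 to 8 with single libraries left out, the highest being without KPC replicate 3, which alone gave any call. The replicate block gave 0 and 0 there. Of the changes between days, the 0 called for day 21 minus 14 became 3 in DESeq2 and 7 with quality weights and stayed 0 with single libraries of those days left out, while the fit without KPC replicate 3 of day 26 called 3 there (Mvd, Sqle and Srebf2). The 5 for day 26 minus 14 became 12, 9 and 2 to 19, and the 0 for day 26 minus 21 became 3 with quality weights and 0 to 10 with single libraries left out. No pairing of libraries by replicate number was seen. Same-numbered KPC and control libraries correlated at -0.115 to 0.147, and at no day did every library correlate best with its own number. At day 26 the same-numbered values were all positive (0.069, 0.0681 and 0.147). Correlations among so few libraries cannot exclude a pairing. The replicate block at day 14 turned Nr1h3 to -0.057. Tm7sf2 at day 14 turned to -0.00096 with RLE size factors, -0.0029 with no filter, -0.12 in limma-voom and -0.027 with quality weights, and at day 26 to -0.0065 with quality weights. With single libraries left out, log2 fold changes that turned spanned, at day 14, -0.26 to 0.14 for Abca1, -0.25 to 0.079 for Pmvk, -0.25 to 0.18 for Tm7sf2, -0.065 to 0.14 for Nr1h3, -0.70 to 0.00047 for Dhcr7 and -0.23 to 0.0039 for Srebf1. At day 21 they spanned -0.042 to 0.095 for Nr1h2, -0.86 to 0.0087 for Tm7sf2, -0.077 to 0.33 for Insig2 and -0.0010 to 0.090 for Scap, and at day 26 -0.69 to 0.034 for Lss, -0.25 to 0.46 for Tm7sf2 and -0.075 to 0.15 for Npc2. None of these turned values was called in all libraries. The cause was not tested. A fit without 1 library leaves 2 or 3 in its group and pools the spread over genes.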
